A study of Homo sapiens with 14 samples.

Results

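The 38 genes described here encode the neuronal cytoskeleton and the synapse: neurofilament subunits and internexin alpha (INA), microtubule proteins, stathmins, growth cone and collapsin response mediator proteins, the Hu RNA-binding proteins, synaptic vesicle and release proteins, cell adhesion molecules and a few further neuronal products. They were chosen by name, not by a cut on fold change, but with earlier results of these data known. They are 38 of 19923 genes in the count tables. All 38 passed the filter on low counts in both batches. Polyadenylated RNA of SK-N-BE2, a MYCN-amplified cell line derived from neuroblastoma, was sequenced in 14 libraries that fall into 7 groups of 2. Batch 1 held cells with the genotype label WT that were given H2O, 10 µM CoCl2 or 50 µM CoCl2, and the labels give no exposure time. Cobalt chloride mimics low oxygen, since cobalt ions slow the breakdown of the hypoxia-inducible factors (HIF). Batch 2 held untreated cells labelled WT and untreated cells labelled TET2KO 1, 2 and 3, where TET2 is a dioxygenase that starts the removal of methyl groups from cytosine in DNA. How TET2 was targeted, and whether each number is 1 clone, is not given in the labels. Nor do they say that replicates were separate cultures, so p-values measure the spread between these libraries, which may be technical.

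Neurofilaments are the intermediate filaments of axons, and tubulins build the microtubules that tau (MAPT), the MAP proteins and doublecortin (DCX) stabilise and that stathmins destabilise. At the presynaptic terminal, SNARE proteins fuse vesicles with the membrane, synaptotagmins sense calcium, complexins clamp or promote fusion, and synapsin and RAB3A hold and direct vesicles. Neuroblastoma arises from the sympathetic lineage of the neural crest, and expression of these genes is a familiar sign of its neuronal side. REST is a repressor that keeps many neuronal genes silent through the DNA element RE1. HIF binds DNA at the core letters ACGTG or GCGTG, of which only ACGTG was searched and marked here.

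Promoter sequence from the RefSeq table (GRCh38.p14) was matched for 27 of the 38 genes, and windows from 250 bases before to 50 after the start were searched on both strands. A strict form of RE1, the letters in capitals in SYN1 below with the pair before GGACAG left free, occurred in 1 of the 27, SYN1, and in 3 of 27305 promoters in the table (0.011%). ACGTG occurred in 5 of the 27 (STMN1, SYP, SYT4, RAB3A and DPYSL3) and in 21.6% of all promoters. CACGTG, which contains ACGTG, occurred in STMN1 alone of the 27 and in 7.43% of all promoters. A match is a description of letters, not a bound site. The 250 bases before the start are shown for SYN1, because of its RE1 match, and for RAB3A and DPYSL3, which are, of the 5 genes with ACGTG, the one that rose at 50 µM CoCl2 and the one that fell most. Capitals mark the RE1 match in SYN1 (chrX:47619858-47620107, minus strand), 233 to 217 bases before the start. They mark ACGTG on the opposite strand, so read as CACGT, in RAB3A (chr19:18204043-18204292, minus strand), 130 to 126 bases before the start, and in DPYSL3 (chr5:147510069-147510318, minus strand), 73 to 69 bases before it.
SYN1: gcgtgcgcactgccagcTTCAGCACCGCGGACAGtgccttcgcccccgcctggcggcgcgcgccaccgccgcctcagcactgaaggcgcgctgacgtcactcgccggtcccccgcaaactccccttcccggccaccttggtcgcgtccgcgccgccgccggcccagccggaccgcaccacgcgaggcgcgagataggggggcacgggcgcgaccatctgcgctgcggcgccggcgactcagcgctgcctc
RAB3A: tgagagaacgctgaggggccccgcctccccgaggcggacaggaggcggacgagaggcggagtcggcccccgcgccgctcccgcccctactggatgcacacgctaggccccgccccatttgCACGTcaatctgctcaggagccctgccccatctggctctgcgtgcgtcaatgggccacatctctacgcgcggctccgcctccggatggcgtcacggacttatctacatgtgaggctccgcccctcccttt
DPYSL3: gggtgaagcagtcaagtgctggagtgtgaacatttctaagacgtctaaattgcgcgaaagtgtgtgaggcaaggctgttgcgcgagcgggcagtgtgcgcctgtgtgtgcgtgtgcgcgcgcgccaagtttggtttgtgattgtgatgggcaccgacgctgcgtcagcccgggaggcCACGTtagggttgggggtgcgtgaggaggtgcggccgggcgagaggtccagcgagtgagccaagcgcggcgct

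Batch 1 libraries held 31214128 to 39540111 counts on genes. Those of batch 2 held 52095024 to 59263320, most of them 1 read of a pair, so their depth in fragments is smaller than the totals show. Differences were tested with edgeR's quasi-likelihood test within each batch and a gene was called where p, adjusted by Benjamini-Hochberg over all genes, was under 0.05. Every adjusted p below is from that test. Levels are in CPM on TMM-scaled library totals, and in RPKM, which also divides by gene length, where genes are compared with each other. TET2 mRNA was 70.8 and 64.8 CPM in WT, 80.4 and 76.6 in knockout 1, 87.4 and 91.1 in knockout 2, and 68.2 and 75.4 in knockout 3. Since it was not lower in any of them, these are called labelled knockouts throughout. An mRNA level cannot show whether TET2 function was lost. TET2 was called higher in knockout 1, a call lost without WT replicate 2. It was also called higher in the mean of the labelled knockouts, a call lost when all knockout libraries shared 1 coefficient. In knockouts 1 and 2 both libraries lay above both of WT, and the level was highest in knockout 2. All 9 adrenergic neuroblast markers used (HAND2, GATA3 and others) were detected in every group. Their summed level was 8996 to 9029 CPM in H2O, 9379 to 9412 at 10 µM, 8054 to 8108 at 50 µM and 7611 to 7783 in WT. At 50 µM, 5 of the 9 were called higher and 3 lower, beside 30.4% and 31.1% of all genes. Much of the sum was MYCN, at 5231 to 5252 CPM in H2O and 4497 to 4500 at 50 µM. CHGA was 2222 and 2236 CPM in H2O and 1781 and 1820 at 50 µM. Summed over 10 mesenchymal markers, the level was 710 to 735 CPM in WT, 243 to 248 in labelled knockout 1, 311 to 319 in knockout 2 and 228 to 233 in knockout 3. It was 213 to 214 CPM in H2O and 162 to 164 at 50 µM. At 50 µM, 2 of the 8 tested were called higher and 4 lower. Against WT, 7 of these 10 were called lower in the mean of the labelled knockouts and 0 higher. The shares of all genes were 11.4% and 7.54%. Most of the WT sum was FN1 (325 and 306 CPM) and COL3A1 (158 and 152 CPM). TWIST1 was 58.4 and 61.5 CPM in WT but 69.2 and 74.7 in knockout 1 and 76.2 and 71.7 in knockout 3. PRRX1 was near the floor, with raw counts of 8 and 6 in WT, 0 in knockouts 1 and 3, and 16 and 10 in knockout 2. Endothelial markers (8 genes) summed to 36.3 to 37.1 CPM in WT, 17.3 to 20.4 in the labelled knockouts, 16.7 to 17.4 in H2O and 10.2 to 10.5 at 50 µM. EGFL7 alone made up most of that sum, at 23.1 and 23.9 CPM in WT and 15.6 and 14.5 in H2O. Schwann and glial markers summed to 11.6 to 12.3 CPM in WT, 5.53 to 8.73 in the labelled knockouts, 6.2 to 6.95 in H2O and 3.78 to 4.06 at 50 µM, with FOXD3 at 0. In WT that sum was mostly ERBB3 (9.97 and 9.26 CPM). S100B was 1.93 and 1.77 CPM in WT and 1.57 to 2.42 in the labelled knockouts. Markers of central nervous system neurons summed to 4.37 to 22.5 CPM over the 14 libraries, with SLC17A6, GAD2 and NEUROD6 at 0. GAD1 made up most of it, at 14.9 and 12.9 CPM in WT and 4.68 and 4.66 in H2O. In bulk RNA, fewer cells of a type and less RNA per cell cannot be told apart, and the part of these marker changes in the results below was not tested.

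The neuronal genes were abundant in both controls. Their median level was 291 CPM in H2O and 258 CPM in WT, beside 30.5 and 26.4 CPM over all genes tested. STMN2, a stathmin of growth cones, was the highest per length at 1028 RPKM in H2O and 503 RPKM in WT. UCHL1, a neuronal deubiquitinase, came next at 304 and 284 RPKM, then the beta-tubulin TUBB2B at 201 and 216 RPKM and STMN1 at 146 and 149 RPKM. The lowest in H2O was ELAVL2 at 10.5 RPKM, and the lowest in WT was MAPT at 2.94 RPKM, against 12.4 RPKM in H2O.

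The 2 controls stood apart for some of these genes although both carry the WT label, and batch and culture cannot be told apart there, so no test was made. TUBB3 stood at 17.1 RPKM in H2O and 3.85 RPKM in WT, STMN4 at 12.5 and 3.56, RTN1 at 24.9 and 6.09, and RAB3A at 84.4 and 25.8. NEFH went the other way, at 66.9 RPKM in H2O and 137 in WT. The summed level of all 38 was 14587 to 14611 CPM in H2O and 11730 to 11740 CPM in WT.

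**Figure D1:**
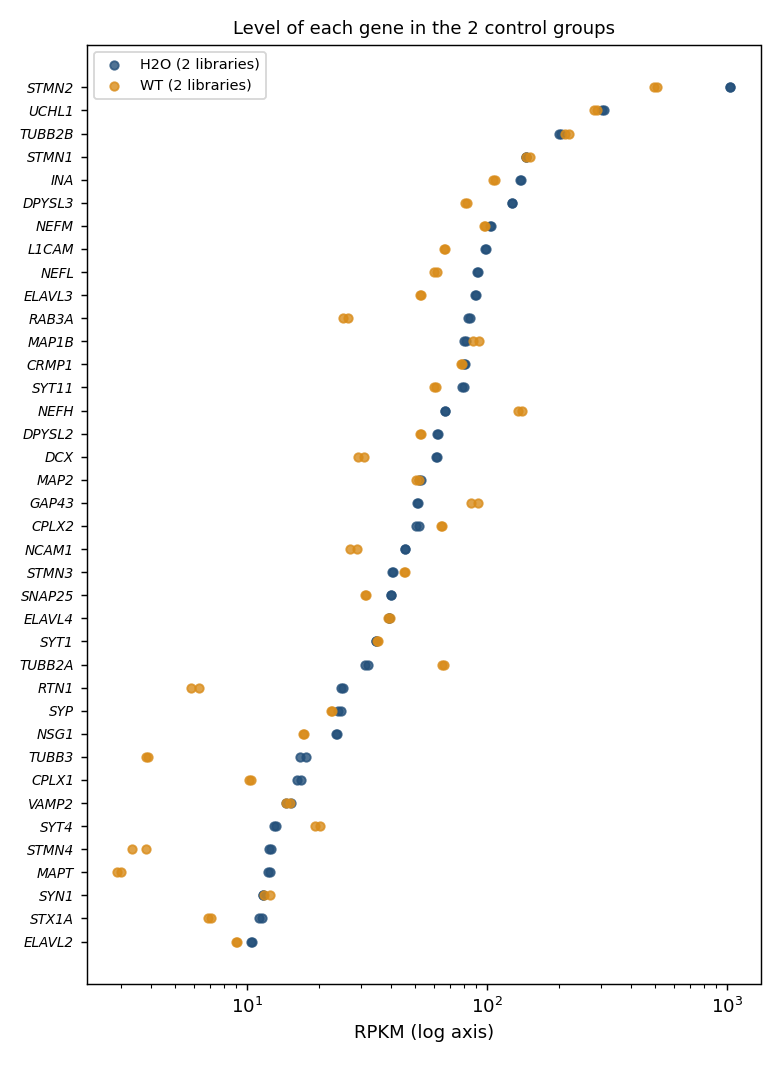
RPKM (log axis) of each of the 38 genes in the 2 libraries of H2O (batch 1) and the 2 of WT (batch 2), ordered by level in H2O. STMN2 is highest in both, at 1028 and 503 RPKM, and MAPT, TUBB3, STMN4, RTN1 and RAB3A lie far lower in WT than in H2O.

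At 50 µM CoCl2, 32 of the 38 genes passed the test, 20 higher and 12 lower, where 61.4% of all 13636 genes tested passed (30.4% higher, 31.1% lower). SYT1 and NCAM1 rose most and DPYSL3 fell most. The changes were small: none of the 38 changed by 2-fold, 5 of 38 reached a log2 fold change of 0.3 in either direction, and so did 29% of all genes. Across the 38, the median log2 fold change was 0.12, beside 0.00 for all genes, and the median absolute value was 0.17, the same as for all genes. Among the 6006 genes at least as abundant in H2O as the least abundant of these genes, 72.7% were called. For those 6006 genes the median absolute log2 fold change was 0.12. The summed level of the 38 was 15053 to 15055 CPM at 50 µM.

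SYT1, the main calcium sensor of fast transmitter release (chr12:78863993-79452008), was 220 and 221 CPM in H2O, 255 and 259 CPM at 10 µM, and 362 and 350 CPM at 50 µM. The 3 groups did not overlap. SYT1 rose by 0.69 on the log2 scale (SE 0.02, adjusted p = 1.55e-75) at 50 µM against H2O, which is 1.61-fold. RAB3A, a GTPase of synaptic vesicles (chr19:18196784-18204042), was 153 and 149 CPM in H2O, 160 and 153 at 10 µM, and 189 in both libraries at 50 µM. The libraries of both doses lay above those of H2O, by a narrow margin and without a call at 10 µM (0.05 on the log2 scale), and with a call at 50 µM (0.33, SE 0.02, adjusted p = 1.88e-28). SYT11, a synaptotagmin that does not bind calcium, rose by 0.18 on the log2 scale. SYN1, a synapsin that tethers vesicles and the gene with the RE1 match printed above, was 43.6 and 43.5 CPM in H2O and 46.9 and 48 CPM at 50 µM. Its log2 fold change of 0.12 (SE 0.04, adjusted p = 0.00368) was not called without 50 µM replicate 2 or by DESeq2.

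Other vesicle genes fell at 50 µM. CPLX1, a complexin, was 39.7 and 38 CPM in H2O, 39.1 and 38.7 at 10 µM, and 32.2 and 32.9 at 50 µM, which is -0.25 on the log2 scale (SE 0.04, adjusted p = 1.38e-07). Its relative CPLX2 fell by 0.08. SYP, which encodes the vesicle membrane protein synaptophysin, fell by 0.09, a call that was lost without 50 µM replicate 1. SYT4 was at 56.7 and 55.8 CPM in H2O and 56.5 and 55.5 CPM at 50 µM, and was not called. Of the 8 vesicle and release genes, 4 rose, 3 fell and 1 did not pass. Of the 3 SNARE genes, VAMP2 rose by 0.28, while STX1A (0.08) and SNAP25 (0.01) were not called.

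NCAM1, a neural adhesion molecule of the immunoglobulin family (chr11:112961247-113278436), was 584 and 582 CPM in H2O, 632 and 643 at 10 µM, and 770 and 776 at 50 µM. Each dose stood above the one before, and the value at 50 µM was 0.41 on the log2 scale (SE 0.02, adjusted p = 2.9e-58). L1CAM, an adhesion molecule of axons, was 724 and 712 CPM in H2O, 703 and 698 at 10 µM, and 783 and 799 at 50 µM. It rose by 0.14 at 50 µM (adjusted p = 2.14e-15).

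DPYSL3, a collapsin response mediator protein of growth cones (chr5:147390808-147510068), was 912 and 914 CPM in H2O, 873 and 858 at 10 µM, and 660 and 664 at 50 µM. At 50 µM it fell by 0.46 on the log2 scale (SE 0.02, adjusted p = 1.6e-67), a ratio of 0.725. GAP43, a growth cone phosphoprotein, fell by 0.17 and CRMP1 fell by 0.11. DPYSL2 (0.02) was not called. None of these 4 growth cone genes rose.

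The neurofilament genes split at 50 µM. NEFL, the light subunit (chr8:24950955-24957110), was 393 and 398 CPM in H2O, 365 and 371 at 10 µM, and 341 and 343 at 50 µM, which is -0.21 on the log2 scale (SE 0.02, adjusted p = 1.01e-21). NEFM, the medium subunit and its neighbour on the chromosome (chr8:24913758-24919098), was 373 and 376 CPM in H2O, 393 and 382 at 10 µM, and 446 and 451 at 50 µM, which is 0.26 on the log2 scale (SE 0.02, adjusted p = 2.46e-30). So the light subunit was lower and the medium subunit higher in every 50 µM library than in every H2O library. NEFH, the heavy subunit, rose by 0.25 and INA fell by 0.11.

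Genes of microtubule binding proteins mostly rose at 50 µM. MAP1B, which stabilises axonal microtubules, was 1012 and 1024 CPM in H2O, 1101 and 1117 at 10 µM, and 1278 and 1246 at 50 µM. It rose by 0.31 (SE 0.01, adjusted p = 5.81e-48) at 50 µM. MAPT was 186 and 184 CPM in H2O and 223 and 219 CPM at 50 µM, and rose by 0.26. MAP2, the dendritic counterpart of tau, rose by 0.25. DCX, a marker of migrating neuroblasts, fell by 0.12. STMN3 (0.12) and STMN4 (0.20) rose, while STMN1 fell by 0.13 and STMN2 fell by 0.17. STMN2 was 2430 and 2426 CPM in H2O, 2499 and 2510 at 10 µM, and 2152 and 2163 at 50 µM.

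Of the 3 beta-tubulins, TUBB3 fell by 0.20 at 50 µM, while TUBB2A (-0.03) and TUBB2B (-0.02) were not called. TUBB3 (chr16:89921392-89938761) shares 35.8% of its exon bases with AC092143.1 on the same strand, and reads in shared exons could not be assigned to 1 gene, so its level is uncertain. Exons of 11 of the 38 genes overlap another gene, among them VAMP2 (12.4% of its exon bases, same strand), STX1A (17.9%, opposite strand) and RAB3A (9.24%, opposite strand), and strand was not used in counting. TUBB2A and TUBB2B are near copies: 65.5% and 52.2% of their 50-base transcript stretches recur in another gene. The 3 Hu genes, whose proteins stabilise neuronal mRNAs, all rose, by 0.16 for ELAVL2, 0.23 for ELAVL3 and 0.24 for ELAVL4. RTN1, a reticulon of neuroendocrine cells, rose by 0.14, UCHL1 by 0.13 and NSG1, an endosomal protein of neurons, by 0.21.

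**Figure D2:**
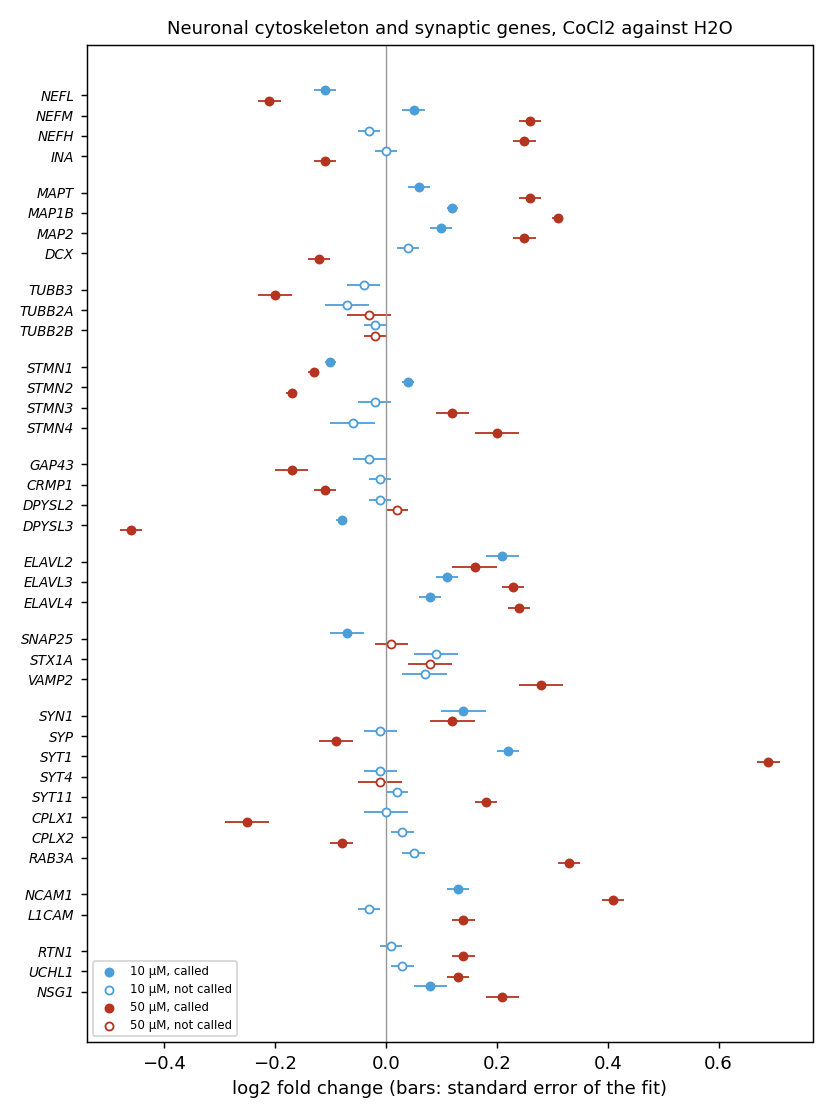
Log2 fold change against H2O (x axis, bars are the SE of the fit) of the 38 genes, ordered by role, at 10 µM and 50 µM CoCl2, with filled points for an adjusted p under 0.05. Most values lie within 0.3 of 0, and SYT1 (0.69) and DPYSL3 (-0.46) lie farthest out, both at 50 µM.

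At 10 µM CoCl2, 16 of the 38 passed, 12 higher and 4 lower, where 22.7% of all genes passed (11.6% higher, 11.1% lower). Among genes at least as abundant as these, 31.9% passed. The 10 µM and 50 µM comparisons share the H2O libraries, so their values are set side by side and are not independent. The largest rises at 10 µM were SYT1 (0.22, SE 0.02), ELAVL2 (0.21, SE 0.03), SYN1 (0.14, SE 0.04) and NCAM1 (0.13, SE 0.02). ELAVL2 was 53.7 and 53.9 CPM in H2O, 62 and 62.5 at 10 µM, and 59 and 61.2 at 50 µM. The 4 falls were NEFL (-0.11, SE 0.02), STMN1 (-0.10, SE 0.01), DPYSL3 (-0.08, SE 0.01) and SNAP25 (-0.07, SE 0.03). STMN1 was 910 and 912 CPM in H2O, 853 and 848 at 10 µM, and 825 and 839 at 50 µM. SNAP25, the SNARE of the presynaptic membrane, was 134 in both H2O libraries, 127 and 129 at 10 µM, and 139 and 133 at 50 µM, with adjusted p = 0.0364 at 10 µM.

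Some of these calls at 10 µM were lost when 1 library was left out. MAPT (0.06), NSG1 (0.08) and SNAP25 were not called without either H2O library or either 10 µM library, nor by DESeq2. NEFM (0.05) was not called by DESeq2 or without H2O replicate 1, H2O replicate 2 or 10 µM replicate 1. SYN1 was not called without 10 µM replicate 1 or by DESeq2. ELAVL4 (0.08) was lost without 10 µM replicate 2, and STMN2 (0.04) without H2O replicate 2 or 10 µM replicate 2.

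Between the doses, 30 of the 38 differed, 19 higher and 11 lower at 50 µM than at 10 µM, where 52.8% of all genes differed (26.2% higher, 26.5% lower). SYT1 stood 0.47 higher and DPYSL3 0.39 lower (log2 fold change -0.39) at 50 µM. SNAP25 (0.08) and SYP (-0.08) were lost without 10 µM replicate 1, without 50 µM replicate 1 or by DESeq2. STMN2, at 0.04 at 10 µM against H2O, was lower at 50 µM than at 10 µM (-0.22).

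REST, the repressor of neuronal genes (chr4:56907876-56966678), was low throughout batch 1. Its level was 1.74 and 1.71 CPM in H2O, 1.4 and 1.78 at 10 µM, and 4.03 and 3.81 at 50 µM. REST rose by 1.18 on the log2 scale (SE 0.16, adjusted p = 2.58e-11) at 50 µM, which is 2.26-fold. Of the 11 genes of REST and its corepressors, 3 rose at 50 µM, 5 fell and 3 did not pass; RCOR3 rose by 0.18 and RCOR2 fell by 0.28.

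**Figure D3:**
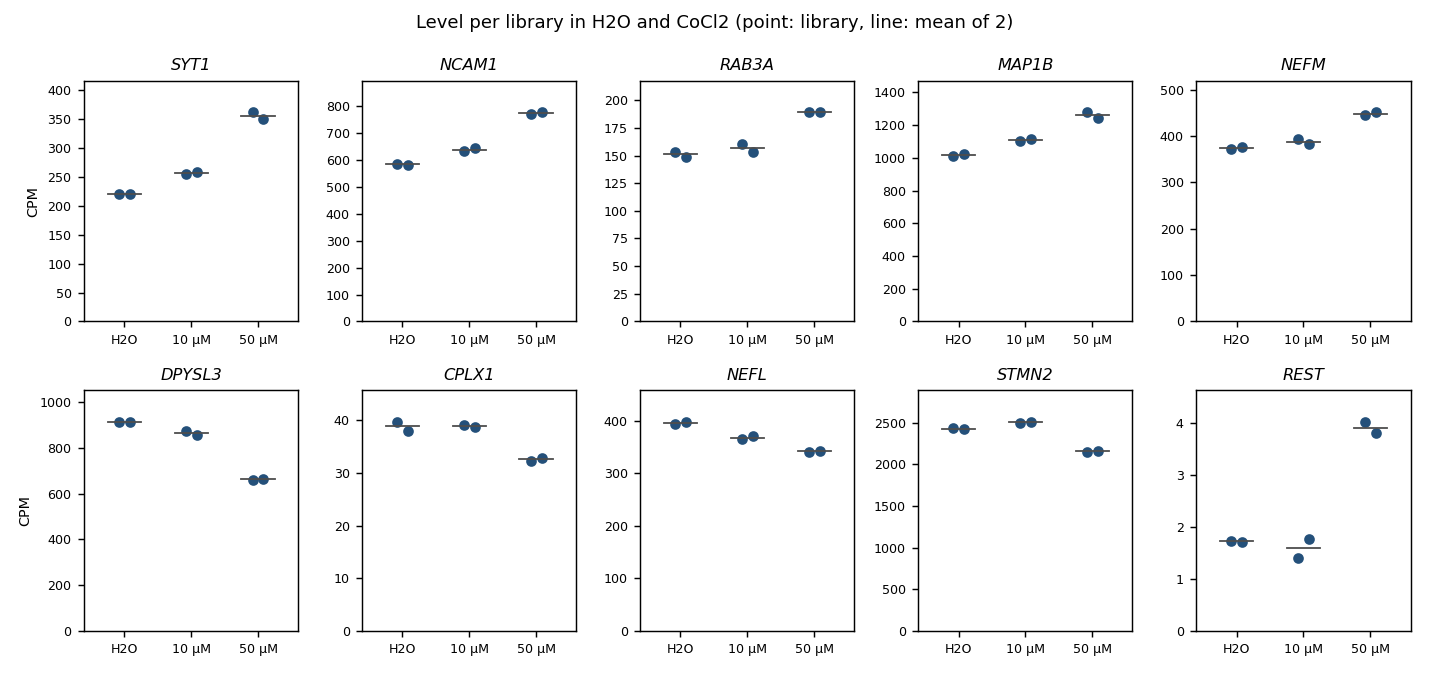
CPM per library (points, line at the mean of 2) in H2O, 10 µM and 50 µM CoCl2 for 9 neuronal genes and REST, each axis starting at 0. SYT1, NCAM1, RAB3A, MAP1B, NEFM and REST are highest at 50 µM, while DPYSL3, CPLX1, NEFL and STMN2 are lowest there.

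In the labelled TET2 knockouts, these genes moved by small amounts and not alike in each. In labelled knockout 1, 21 of the 38 passed against WT, 16 higher and 5 lower, where 17.5% of all 14061 genes passed (7.79% higher, 9.72% lower). In labelled knockout 2, 20 passed, 12 higher and 8 lower, where 26.3% passed (12% higher, 14.3% lower). In labelled knockout 3, 19 passed, 18 higher and 1 lower, where 18.9% passed (8.9% higher, 9.96% lower). Without WT replicate 1 the count in knockout 1 was 13. Among the 9072 genes at least as abundant in WT as the least abundant of these genes, 20.9%, 30.9% and 22.4% passed. The median log2 fold change of the 38 was 0.10, -0.03 and 0.11. The median absolute value was 0.12, 0.10 and 0.11, beside 0.10, 0.13 and 0.11 for all genes. Over the 9072 genes at least as abundant, it was 0.08, 0.09 and 0.08. None of the 38 changed by 2-fold in any of them. The 3 comparisons share the WT libraries.

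NEFL was 262 and 268 CPM in WT, 326 and 324 in labelled knockout 1, 253 in both libraries of knockout 2, and 345 in both of knockout 3. It rose in knockout 1 (0.29, SE 0.03, adjusted p = 1.25e-13) and knockout 3 (0.38, SE 0.03, adjusted p = 4.64e-21), and was not called in knockout 2 (-0.07). NEFM was 356 and 355 CPM in WT, 417 and 408 in knockout 1, 337 and 346 in knockout 2, and 437 and 449 in knockout 3. Its log2 fold change was 0.22 (SE 0.03), -0.06 (not called) and 0.32 (SE 0.03). For both subunits all libraries of knockouts 1 and 3 lay above WT and both of knockout 2 below it. INA rose in knockouts 1 (0.18) and 3 (0.15), and NEFH fell in knockout 2 (-0.11), a call lost without WT replicate 2 or knockout 2 replicate 1.

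DPYSL3 was 595 and 580 CPM in WT, 529 and 531 in labelled knockout 1, 409 and 407 in knockout 2, and 615 and 613 in knockout 3. It fell in knockouts 1 (-0.15, SE 0.03, adjusted p = 5.38e-05) and 2 (-0.53, SE 0.03, adjusted p = 5.34e-39), with a ratio of 0.694 in the latter, and was not called in knockout 3 (0.06). GAP43 was 179 and 191 CPM in WT, 155 and 160 in knockout 1, 162 and 161 in knockout 2, and 189 and 181 in knockout 3. It fell in knockouts 1 (-0.24, SE 0.04) and 2 (-0.20, SE 0.04), and only in knockout 3 did its libraries reach the range of WT. DPYSL2 rose in knockouts 1 (0.13) and 3 (0.11) and fell in knockout 2 (-0.09). The knockout 2 call was lost without WT replicate 1 or knockout 2 replicate 2, and the knockout 3 call without knockout 3 replicate 1.

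TUBB3 was 16.9 and 17.2 CPM in WT, 16.8 and 15.4 in labelled knockout 1, 10.8 and 11.9 in knockout 2, and 19.2 and 18.4 in knockout 3. It fell in knockout 2 by 0.59 on the log2 scale (SE 0.10, adjusted p = 1.14e-07), the largest fall of the 38, and was not called in knockouts 1 (-0.08) and 3 (0.14). MAPT was 43.2 and 44.7 CPM in WT and 38.5 and 36.8 in knockout 2, and fell there by 0.22 (SE 0.06), a call lost without knockout 2 replicate 2. MAP1B fell in knockout 1 (-0.11) and rose in knockout 2 (0.12). The first of these was lost without WT replicate 1 or knockout 1 replicate 2 and the second without WT replicate 2. MAP2 rose in knockout 2 (0.22). DCX was 315 and 297 CPM in WT and 276 and 260 in knockout 2, where it fell by 0.19 (SE 0.03).

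The stathmins leaned upward. STMN3, a membrane-bound stathmin of neurons (chr20:63639705-63657682), was 138 and 136 CPM in WT, 149 and 166 in labelled knockout 1, 179 and 185 in knockout 2, and 160 and 161 in knockout 3. It rose in all 3, by 0.20 (SE 0.04), 0.41 (SE 0.04) and 0.22 (SE 0.04), and every library lay above both of WT. STMN4 was 10.9 and 12.5 CPM in WT, 15.4 and 12.5 in knockout 1, 14.4 and 17 in knockout 2, and 14.8 and 13.4 in knockout 3. It rose in knockouts 2 (0.42, SE 0.10) and 3 (0.27, SE 0.10, adjusted p = 0.0489) and was not called in knockout 1 (0.24). STMN1 rose in knockouts 2 (0.12) and 3 (0.14). STMN2 rose in knockouts 1 (0.10) and 3 (0.18) and fell in knockout 2 (-0.07). Several of these calls did not hold when 1 library was left out. STMN3 in knockout 1 was lost without knockout 1 replicate 2, STMN1 in knockout 2 without WT replicate 1, and STMN4 in knockout 2 without knockout 2 replicate 2. STMN4 in knockout 3 was lost without WT replicate 1, knockout 2 replicate 1 or knockout 3 replicate 1, and by DESeq2. STMN2 in knockout 1 was lost without WT replicate 1 or knockout 1 replicate 1, and in knockout 2 without WT replicate 2 or either knockout 2 library.

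Besides STMN3, 4 of the 38 genes were called higher in each of the 3 labelled knockouts, all against the same WT libraries. The share of all genes called higher in all 3 is not given here, so this count is not read as particular to these genes. SYT11 was 318 and 312 CPM in WT, 351 and 348 in knockout 1, 406 and 395 in knockout 2, and 352 and 349 in knockout 3, with log2 fold changes of 0.15, 0.35 and 0.15 (SE 0.03 each). TUBB2B was 443 and 462 CPM in WT, 491 and 486 in knockout 1, 476 and 496 in knockout 2, and 488 and 486 in knockout 3, with values of 0.11, 0.10 and 0.10 (SE 0.03 each). ELAVL3 was 250 and 253 CPM in WT, 273 and 275 in knockout 1, 277 and 286 in knockout 2, and 265 and 273 in knockout 3, with values of 0.13, 0.16 and 0.10. ELAVL4 was 325 and 331 CPM in WT, 358 and 351 in knockout 1, 352 and 349 in knockout 2, and 370 and 375 in knockout 3, with values of 0.11, 0.09 and 0.18. For these 4 genes every library of a labelled knockout lay above both libraries of WT, which largely follows from the calls. The 3 calls of TUBB2B were each lost without WT replicate 1, and also without knockout 1 replicate 1, knockout 2 replicate 2 and knockout 3 replicate 1 in turn. ELAVL3 was lost in knockout 1 without knockout 1 replicate 2 and in knockout 3 without either WT library or knockout 3 replicate 2. ELAVL4 was lost in knockout 1 without WT replicate 1 or knockout 1 replicate 1 and in knockout 2 without any 1 of the WT or knockout 2 libraries. The calls of SYT11 held without any 1 library.

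Vesicle and release genes differed by knockout. SYT1 was 225 and 223 CPM in WT, 230 and 228 in labelled knockout 1, 292 and 282 in knockout 2, and 196 and 200 in knockout 3. It rose in knockout 2 (0.36, SE 0.04, adjusted p = 5.06e-18) and fell in knockout 3 (-0.18, SE 0.04, adjusted p = 4.36e-05). SYP was 118 and 117 CPM in WT, 137 and 136 in knockout 1, 114 and 119 in knockout 2, and 144 and 139 in knockout 3. It rose in knockouts 1 (0.22, SE 0.04) and 3 (0.27, SE 0.04), where no library overlapped WT. SNAP25 was 104 and 106 CPM in WT, 112 and 113 in knockout 1, 98.2 and 98.6 in knockout 2, and 130 and 126 in knockout 3, and was called only in knockout 3 (0.28, SE 0.04).

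CPLX1 was 23.9 and 24.4 CPM in WT and 28.6 and 31.2 in labelled knockout 3, where it rose by 0.30 (SE 0.07, adjusted p = 0.00062). SYN1 was 44.2 and 46.8 CPM in WT, 48.9 and 50.1 in knockout 1, 41.3 and 43.4 in knockout 2, and 50.5 and 54.6 in knockout 3. It rose in knockout 3 (0.21, SE 0.06), a call lost without WT replicate 1 or knockout 3 replicate 2. SYT4 was 86.8 and 83 CPM in WT and 79.3 and 75.3 in knockout 1, where it fell by 0.14 (adjusted p = 0.0349), a call lost without WT replicate 1 or knockout 1 replicate 2 and by DESeq2. STX1A, VAMP2, CPLX2 and RAB3A were called in none of the labelled knockouts, with log2 fold changes from -0.10 to 0.08.

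Of the adhesion genes, NCAM1 was 367 and 343 CPM in WT and 323 and 322 in labelled knockout 1, where it fell by 0.14 (SE 0.03), a call lost without WT replicate 1. L1CAM rose in knockouts 1 (0.14) and 3 (0.11), calls lost without knockout 1 replicate 2 and knockout 3 replicate 1 respectively. NSG1 was 75.5 and 74.5 CPM in WT, 91 and 91.4 in knockout 1, 100 in both libraries of knockout 2, and 84.7 and 78.1 in knockout 3. It rose in knockouts 1 (0.28, SE 0.05) and 2 (0.42, SE 0.05) and was not called in knockout 3 (0.12, adjusted p = 0.0693).

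**Figure D4:**
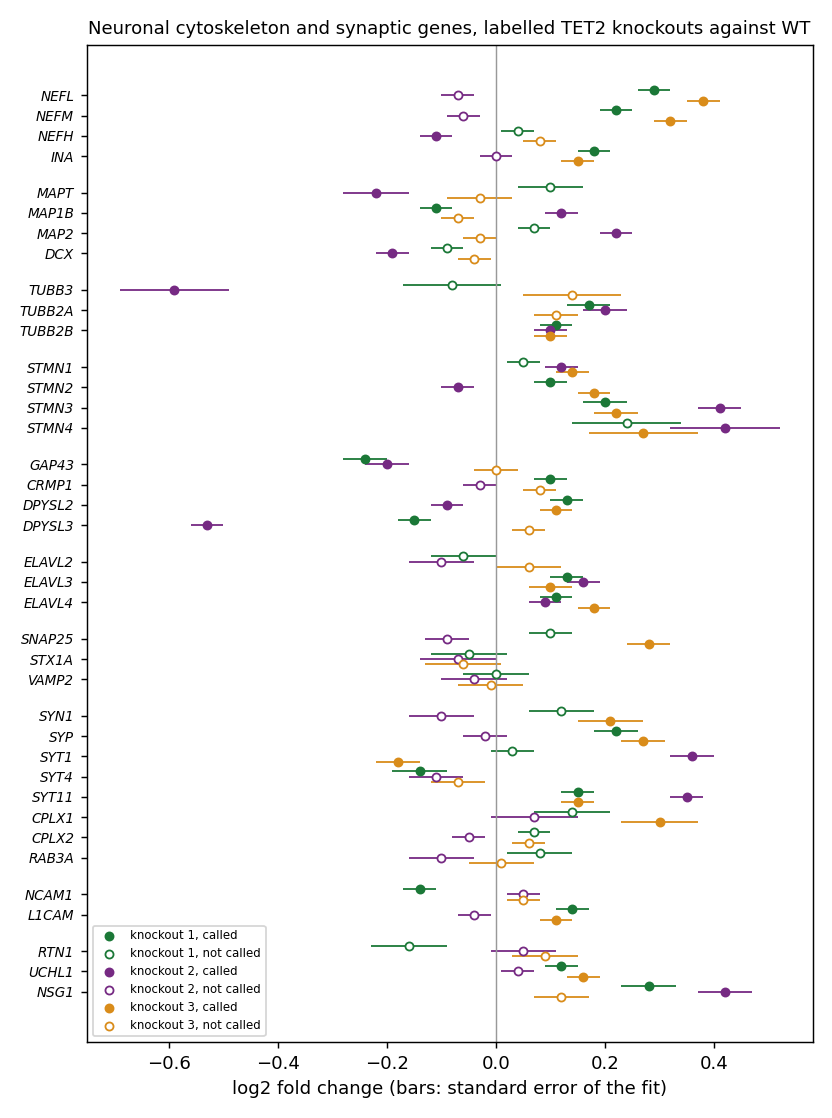
Log2 fold change against WT (x axis, bars are the SE of the fit) of the 38 genes, ordered by role, in labelled TET2 knockouts 1, 2 and 3, with filled points for an adjusted p under 0.05. The points of knockout 2 often lie apart from those of knockouts 1 and 3, as for NEFL, NEFM, TUBB3, DPYSL3 and SYT1.

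Averaged with equal weight, the labelled knockouts gave 23 of the 38 genes called against WT, 19 higher and 4 lower, where 18.9% of all genes were called (7.54% higher, 11.4% lower). The largest rises of the mean were STMN4 (0.31, SE 0.08), STMN3 (0.28, SE 0.03), NSG1 (0.27, SE 0.04) and SYT11 (0.22, SE 0.03). The 4 falls were DPYSL3 (-0.20, SE 0.03), GAP43 (-0.15, SE 0.03), SYT4 (-0.11, SE 0.04) and DCX (-0.11, SE 0.03). When the 6 knockout libraries shared 1 coefficient in the edgeR fit, differences between the knockouts counted as spread. Then 0 of the 38 were called, where 1.82% of all genes were called. In that fit 11 had an unadjusted p under 0.05, and the smallest adjusted p was 0.106, for STMN3 (0.28). The share of all genes with an unadjusted p under 0.05 is not given here. Without WT replicate 1 the count was 13, and the calls of STMN4, DCX and SYT4 were among those lost. GAP43 was lost without WT replicate 2, and SYT4 without knockout 1 replicate 2, knockout 2 replicate 1 or knockout 3 replicate 1 and by DESeq2.

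Compared with each other, without WT, the labelled knockouts differed in 29 of the 38 genes (edgeR's quasi-likelihood F-test of any difference), where 37.6% of all genes differed and 45.6% of genes at least as abundant did. The spread between the highest and lowest knockout was largest for TUBB3 (0.73 on the log2 scale, adjusted p = 5.01e-11), DPYSL3 (0.59, adjusted p = 1.11e-44), SYT1 (0.53, adjusted p = 9.21e-33) and NEFL (0.45, adjusted p = 4.03e-28). Its median over the 38 was 0.19, the same as over all genes, and 0.14 over genes at least as abundant. Of the 29, knockout 3 was highest in 16, knockout 1 in 7 and knockout 2 in 6 (MAP1B, MAP2, STMN3, SYT1, SYT11 and NSG1). Knockout 2 was lowest in 19. In 12 of the 29 knockout 3 was highest and knockout 2 lowest: NEFL, NEFM, NEFH, TUBB3, STMN2, DCX, SYN1, SYP, SNAP25, CPLX1, UCHL1 and DPYSL3. Of all 5292 genes that differed among the knockouts, 34.3% were highest in knockout 3, 20.8% in knockout 1 and 44.9% in knockout 2. Knockout 2 was lowest in 45.1% of them, and 28.9% were highest in knockout 3 and lowest in knockout 2.

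Of these differences, 8 were lost without 1 library. They were STMN1 (without any 1 knockout library other than knockout 3 replicate 1), CPLX1 (without knockout 2 replicate 1 or knockout 3 replicate 2), CPLX2, DCX and UCHL1 (without knockout 2 replicate 2), CRMP1 (without knockout 2 replicate 1), RTN1 (without knockout 1 replicate 1) and RAB3A (without knockout 1 replicate 1 or knockout 2 replicate 1, and by DESeq2). Among the adrenergic markers, MYCN was 2815 to 2837 CPM in knockout 2, 4548 to 4594 in knockout 1 and 4700 to 4715 in knockout 3. The other 8 markers summed to 2971 to 3035 CPM in knockout 2, 3050 to 3105 in knockout 1 and 2924 to 2973 in knockout 3, a sum chosen after the data were seen. Of all 9, 3 were called higher and 3 lower in knockout 2 against WT. The part of MYCN in the differences among knockouts was not tested.

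REST was 8.91 and 7.42 CPM in WT, 7.72 and 7.89 in labelled knockout 1, 11 and 10.7 in knockout 2, and 5.28 and 6.3 in knockout 3. It was higher in knockout 2 (0.41, SE 0.12, adjusted p = 0.00332) and lower in knockout 3 (-0.50, SE 0.13, adjusted p = 0.00254) than in WT, and the knockouts differed by up to 0.91. The knockout 2 call was lost without WT replicate 2 and the knockout 3 call without WT replicate 1 or knockout 3 replicate 1.

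**Figure D5:**
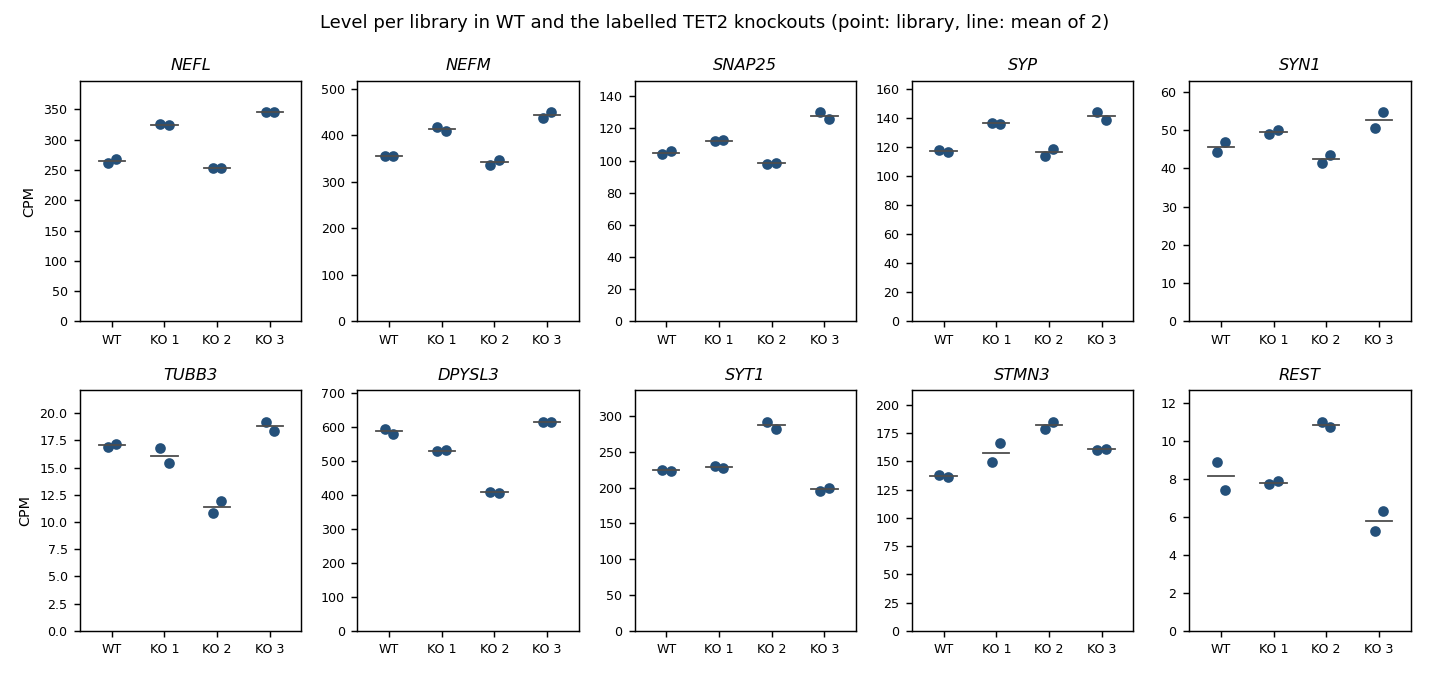
CPM per library (points, line at the mean of 2) in WT and labelled TET2 knockouts 1, 2 and 3 (KO 1 to 3) for 9 neuronal genes and REST, each axis starting at 0. NEFL, NEFM, SNAP25, SYP, SYN1, TUBB3 and DPYSL3 are lowest in knockout 2 and highest in knockout 3 among the knockouts, while SYT1, STMN3 and REST are highest in knockout 2.

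Other genes of the same pathways were read from lists that hold none of the 38. Of 22 axonal cytoskeleton and transport genes tested at 50 µM, 11 rose and 10 fell, with a median log2 fold change of 0.07, beside 0.12 for the 38 and 0.00 for all genes. Among them the peripheral neuron filament PRPH rose by 0.58 and the microtubule protein MAP1A by 0.53, while MARCKS fell by 0.33 and DPYSL5 by 0.32. Of 36 further synaptic vesicle and release genes, 14 rose and 13 fell, with a median of -0.02. VAMP1 (0.96) and DNM3 (0.63) rose most, and SYT13 (-1.97) and CPLX3 (-1.86) fell most, more than any of the 38. SYT13 was low, at 2.86 and 3.45 CPM in H2O and 0.928 and 0.7 at 50 µM. So was VAMP1, at 1.94 and 1.92 CPM in H2O and 4.13 and 3.44 at 50 µM. Of 21 neuronal adhesion and synapse-organising genes, 7 rose and 11 fell, with a median of -0.10, CNTNAP1 at 0.57 and NLGN3 at -0.67. NLGN3 was low, at 1.79 and 1.69 CPM in H2O and 1.28 and 0.924 at 50 µM. Of 13 neuronal RNA-binding and splicing genes, 2 rose and 4 fell, with a median of 0.00, CELF3 at 0.16 and CELF5 at -0.40. Of 22 widely expressed relatives of the 38, such as the tubulins of most cells and vimentin, 9 rose and 11 fell, with a median of -0.08, TUBA1C at 0.68, VIM at 0.42, TUBB4B at -0.40 and TUBB6 at -0.37.

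In the mean of the labelled knockouts, 7 of 23 axonal cytoskeleton genes rose and 3 fell, with a median of 0.04 (0.07 for the 38), DPYSL4 at 0.26 and ANK3 at -0.52. Of the 36 vesicle genes, 8 rose and 3 fell, with a median of 0.05, RIMS1, an active zone protein, at 1.49 and SYT7 at -0.56. RIMS1 was near the floor, with raw counts of 11 and 8 in WT. Its counts were 24 and 30 in knockout 1, 18 and 30 in knockout 2, and 38 and 20 in knockout 3. Of the 21 adhesion genes, 2 rose (NRCAM 0.18, DLG4 0.14) and 9 fell, CNTNAP2 the most (-0.78), and the median was -0.10. CNTNAP2 was low in WT, at 3.13 and 2.85 CPM. Of the 13 RNA-binding genes, 2 rose (MSI1 0.28, CELF3 0.13) and 1 fell (NOVA2 -0.16), with a median of -0.04. Of the 22 relatives, 5 rose, among them TUBB4B (0.19) and TUBB (0.14), and 2 fell (NES -0.15, UCHL5 -0.09), with a median of 0.02. None of the 11 genes of REST and its corepressors was called by edgeR in the mean.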

How the data were processed

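RNA was measured in 14 libraries, 2 per group, from 2 batches. The authors deposited raw counts per gene name, made with featureCounts 1.5.3 in batch 1 and 2.0.5 in batch 2 from exons of protein-coding genes of GENCODE 33 (GRCh38), with the paired-end option and no strand option, per the file headers. The submitters' processing notes also name Trimmomatic 0.36, STAR 2.6.1d and Subread 1.5.3. Among counts of 1 to 10, 40.5 to 41.3% were even in batch 1 and 77.9 to 80.2% in batch 2. So most batch 2 fragments were counted as 2 reads. RPKM used the gene length in the deposited files.

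Groups were fitted as 1 coefficient each, batch by batch, in R 4.3.3 with edgeR 4.0.16 (filterByExpr, TMM, glmQLFit with robust = TRUE and legacy = FALSE, negative binomial dispersion held at no less than 0.0001), and P-values were adjusted over all genes tested. The steps were tested on simulated data. Replicate pairs differed by more than counting noise and were counted separately. Alternatives were DESeq2 1.42.0, other size factors, no count filter, all libraries in 1 fit, a replicate block, no dispersion floor, halved batch 2 counts, a shared knockout coefficient and each library left out in turn.

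The genes and lists were chosen with earlier results of these data known. Values per library were given for genes among the 4 largest rises or falls called in a comparison with a control, and for genes called alike in all 3 labelled knockouts, with others named to complete a family. Of each further list, at most the 2 largest rises and 2 largest falls called were named. Shared sequence between genes was counted over transcripts of GENCODE 29. One marker of the adrenergic list is not reported here and was left out of its sum.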

Additional observations from a re-analysis of the deposited data

Results flagged for a closer look

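The labelled TET2 knockouts carry the same label against the same WT, yet edgeR's quasi-likelihood test of a difference among them called 29 of the 38 neuronal genes, beside 37.6% of all genes. Values below are the highest minus the lowest knockout on the log2 scale. Among filament genes the gap was 0.45 for NEFL, 0.37 for NEFM, 0.19 for NEFH and 0.18 for INA. Among microtubule genes it was 0.73 for TUBB3, 0.32 for MAPT, 0.25 for MAP2, 0.23 for MAP1B and 0.15 for DCX. The stathmins STMN2, STMN3 and STMN1 gave 0.25, 0.21 and 0.09. The growth cone genes gave 0.59 for DPYSL3, 0.23 for GAP43, 0.22 for DPYSL2 and 0.12 for CRMP1.

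At the synapse the gap was 0.53 for SYT1, 0.38 for SNAP25, 0.31 for SYN1, 0.29 for SYP, 0.24 for CPLX1, 0.20 for SYT11, 0.18 for RAB3A and 0.12 for CPLX2. It was 0.19 for NCAM1 and 0.18 for L1CAM, the adhesion molecules. The remaining genes gave 0.30 for NSG1, 0.25 for RTN1 and 0.12 for UCHL1. Why the labelled knockouts differed was not tested.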

How the results depend on the processing

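Of 201 called values (a gene in a comparison, with REST and TET2 where they were called), 2674 recomputed values gave 2488 still called, 186 no longer called and 0 of opposite sign; 73 of the 201 were lost under at least 1 alternative. The 16 neuronal genes called at 10 µM were 9 with all 14 libraries in 1 fit. The share of all genes called there was 5.49%, against 22.7%. The 23 called in the mean of the labelled knockouts were 0 with a shared knockout coefficient. The share of all genes called there was 1.82%, against 18.9%. With each library left out in turn, the count was 11 to 18 at 10 µM, 31 to 32 at 50 µM, 28 to 31 between the doses, 13 to 22 in labelled knockout 1, 14 to 20 in knockout 2, 15 to 20 in knockout 3, 13 to 22 in their mean and 25 to 31 for the difference among them. Both counts of 13 came without WT replicate 1. Counts over all genes moved as well, as given below, and the cause of these changes was not tested.

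Over all genes, the 3098 calls at 10 µM were 1056 with DESeq2 and 796 with all 14 libraries in 1 fit, and the 7198 between the doses were 4745 and 4674. With 1 library left out, the calls at 10 µM were 2063 (without H2O replicate 1) or 1860 (without 10 µM replicate 2). Without WT replicate 1, the 2462 calls of labelled knockout 1 were 1619, the 2653 of knockout 3 were 1616 and the 2656 of the mean were 1587. They were 1375 in knockout 1 without its replicate 2, 2406 rather than 3698 in knockout 2 without its replicate 1, and 1568 in knockout 3 without its replicate 1. With a shared knockout coefficient the mean had 256 calls, 1.82% of all genes.

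Replicate numbers shared only a number: same-numbered differences correlated across genes at -0.084 to 0.016 between groups of batch 1 and at -0.203 to 0.156 in batch 2. With the replicate block the counts of neuronal genes were 14 at 10 µM, 32 at 50 µM and 30 between the doses. The shares of all genes were 21.8%, 60.9% and 52.2%. In labelled knockouts 1, 2 and 3 the counts were 21, 19 and 18, with 20 in their mean and 29 among them. For these the shares of all genes were 15.8%, 24.9%, 17.5%, 17.5% and 35.9%.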
